A study of Mus musculus with 18 samples.

Results

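Interferon-stimulated genes are the genes whose transcription rises when a cell senses interferon. A list of 34 such genes and of the factors that switch them on was followed across 18 arrays of mouse embryonic fibroblasts. Every probe set annotated to a listed gene was taken, and a gene was reported where a probe set reached log2 5, a linear intensity of 32, in at least 2 arrays. Of the 34 genes, 32 had a probe set with a single gene symbol (51 probe sets), and 24 of them (30 probe sets) passed that filter, out of 10078 genes and 18958 probe sets that passed it in the whole series. Another 8 genes stayed under it. Isg15 was represented only by a probe set that carries several symbols, and Ifi44 was not analysed here.

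The fibroblasts came from E12.5 to E14.5 embryos with the head, the liver and blood clots removed, and had 3 genotypes: wt, heterozygous and homozygous. The labels describe the mutant as constitutively active, but disagree on its gene, which is TGFBR1, the type I TGFb receptor, in the title of the series and TGFb1, the ligand, in its design text. Each genotype was measured untreated (vehicle in the design text, with no duration given) and after 4 h and 24 h with 5 ng/mL of the ligand TGFb1. Each of the 9 groups had 2 arrays, called replicates 1 and 2 below. All groups grew in medium with 10% serum. Whether a group's 2 arrays stand for separate embryos or cultures is not stated, so the p-values measure the spread between these arrays only. In RNA from a whole culture, fewer cells of a type and less RNA per cell cannot be told apart.

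Type I interferons bind the receptor IFNAR1-IFNAR2, whose kinases phosphorylate STAT2. With IRF9 it forms part of a complex that binds the interferon-stimulated response element (ISRE) in target promoters, while interferon gamma acts through the gamma-activated site (GAS). Fibroblasts respond to and produce type I interferon and keep a low basal expression of many of these genes without infection. STAT2, IRF9 and IRF1 are themselves encoded by interferon-stimulated genes.

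The promoters of the members were searched for these elements in RefSeq sequences of GRCm38.p6, from 250 bases before to 50 bases after each annotated start. The ISRE core was taken as GAAA, any 2 bases and GAAA again, on either strand, so that on the opposite strand it reads TTTC, 2 bases and TTTC. It occurred in 13 of the 26 members that have a promoter entry, against 3.993% of the 27025 genes in the table. The GAS core, TTCC, any base and GGAA, the same on both strands, occurred in 3 of the 26, Bst2, Ifit2 and Irgm2, against 1.347% of genes. The windows below are printed 5′ to 3′ on the strand of the gene with the ISRE core in capitals. They belong to some of the members with a core, chosen as examples. After 4 h of TGFb Stat2 was called lower in all 3 genotypes, Ifit1 and Irgm2 in both mutants and Ifit3 in homozygous cells only. Gbp2 was called against untreated cells only after 24 h, and Bst2 was called lower between 4 h and 24 h.
Ifit1, chr19:34640765-34640833, plus strand: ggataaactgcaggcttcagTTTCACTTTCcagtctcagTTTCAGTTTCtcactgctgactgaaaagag
Ifit3, chr19:34583353-34583436, plus strand: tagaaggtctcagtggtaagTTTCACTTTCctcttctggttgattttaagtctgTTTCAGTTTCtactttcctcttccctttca
Irgm2, chr11:58214893-58214942, plus strand: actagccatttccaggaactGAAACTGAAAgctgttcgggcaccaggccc
Stat2, chr10:128270256-128270305, plus strand: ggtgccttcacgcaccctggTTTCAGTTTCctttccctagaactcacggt
Gbp2, chr3:142620584-142620633, plus strand: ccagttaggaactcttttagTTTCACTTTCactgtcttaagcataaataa
Bst2, chr8:71537567-71537622, minus strand: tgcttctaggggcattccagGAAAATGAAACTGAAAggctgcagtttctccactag
Ifit1 and Ifit3 hold 2 separate cores each, and in Bst2 2 cores share bases and a GAS core overlaps the first. Members with the ISRE core were found both among those lower at 4 h and among those lower only later. Ifit2, Irf1, Irf9 and Trim25, called lower at 4 h in all 3 genotypes as Stat2 was, had no ISRE core in this window. A match is a description of the sequence and not evidence of a bound site.

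**Figure D1:**
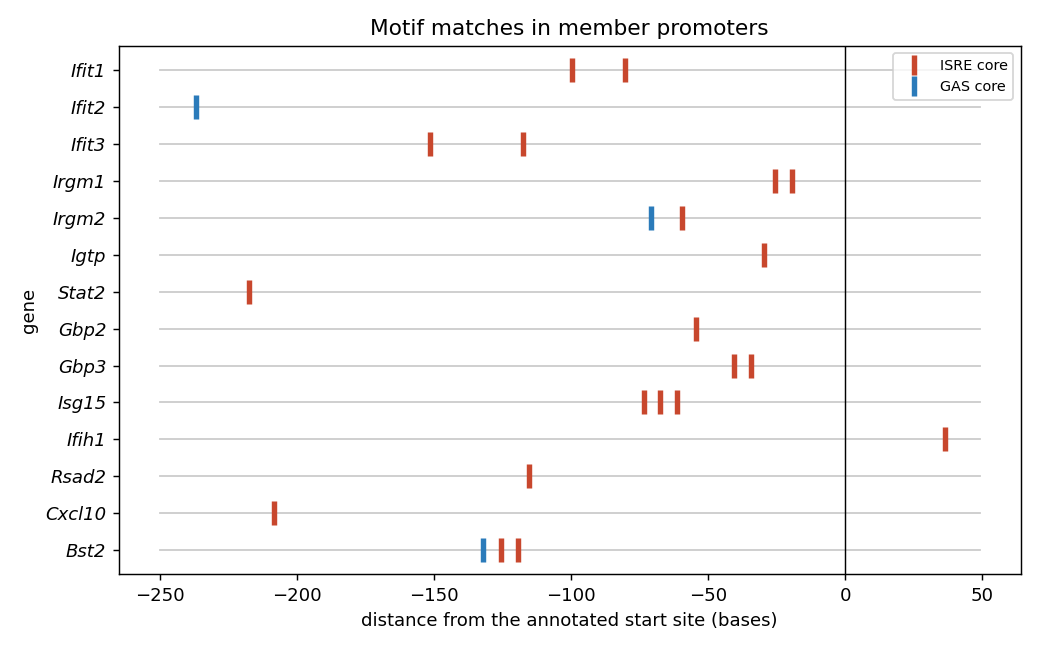
Positions of ISRE core (red) and GAS core (blue) matches in the promoters of the 14 members with a match, as distance in bases from the annotated start site. Each grey line is 1 promoter from 250 bases before to 50 bases after the start, and most matches lie upstream of it.

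The arrays carried fibroblast RNA together with a varying macrophage signal and markers of other cell types. Summed over 11 of 11 fibroblast markers the linear intensity was 193704 to 262395 per array, and none of 8 lymphocyte and 4 erythroid markers passed the filter, while 2 of 7 endothelial markers (summed intensity 717 to 2215) and 4 of 5 epithelial markers (655 to 4018) did. All 21 macrophage and myeloid markers passed it. Their summed intensity was 3178 to 17553 in the wt arrays, 32433 to 53900 in the heterozygous and 23218 to 39661 in the homozygous arrays. Within each wt pair the array with more macrophage signal also had the higher median over the 24 members. Untreated wt replicate 1 had a macrophage sum of 12746 and a member median of log2 8.15, against 4502 and 6.25 in replicate 2. The 4 h wt pair had 4760 and 5.28 in replicate 1 against 17553 and 7.20 in replicate 2, and the 24 h pair 3178 and 5.12 against 8358 and 6.09. In the mutants the member medians of a pair differed by little, at 8.44 and 8.15 in untreated heterozygous and 8.25 and 8.34 in untreated homozygous cells. Yet untreated heterozygous replicate 1 was higher in 22 of 24 members (median 0.57 log2), with macrophage sums of 48251 and 38141. At 24 h heterozygous replicate 1 was higher in 20 (median 0.28 log2), with sums of 42828 and 32433. The heterozygous 4 h pair, with sums of 53900 and 44995, was split 11 to 13. In the homozygous pairs replicate 1 was higher in 10, 5 and 9 members, with sums that differed little. Between replicates the root mean square SD over genes was 0.335 to 0.411 log2 in the wt and 0.195 to 0.276 log2 in the mutant pairs. The part of macrophage RNA in the member levels was not tested.

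**Figure D2:**
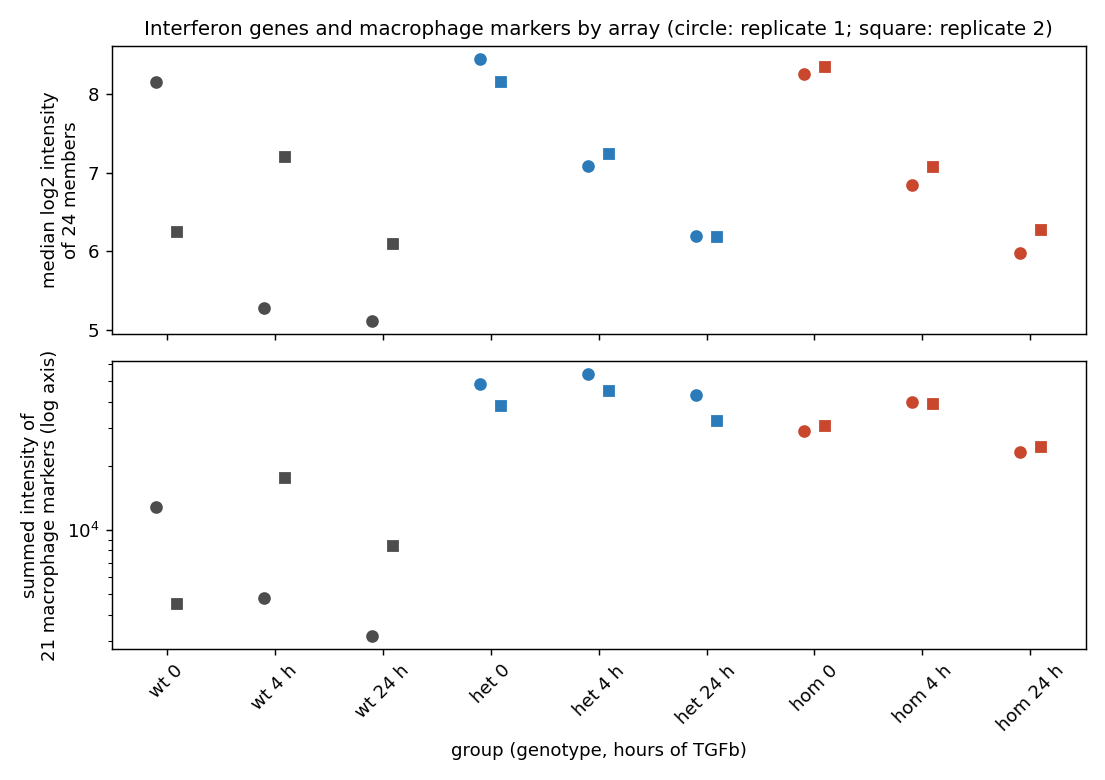
The upper panel gives the median log2 intensity of the 24 tested members and the lower one the summed intensity of 21 macrophage markers (linear units, log axis) for each array, by group (x axis: 0 is untreated). Circles are replicate 1 and squares replicate 2, and in each wt pair the same array is higher in both panels.

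After 4 h of TGFb, members were lower and none was called higher in any genotype. Limma called 5 of 24 lower in wt cells, where 10.5% of all genes tested were called lower and 8.68% higher, 11 in heterozygous cells (12.8% of all genes lower, 15.2% higher) and 12 in homozygous cells (17% lower, 19.7% higher). The median log2 difference over the 24 was -0.87, -1.11 and -1.32, against -0.03, 0.02 and 0.03 over all genes. Ifit2, Irf1, Irf9, Stat2 and Trim25 were called in each of the 3 genotypes. Dtx3l, Ifit1, Irgm2, Rtp4 and Tap1 were called in both mutants. After 24 h the counts were 6 lower in wt (6.35% of all genes lower, 4.08% higher), 8 in heterozygous (3.67% lower, 2.68% higher) and 11 in homozygous cells (4.98% lower, 2.81% higher), again with 0 members higher. The medians were -1.07, -1.52 and -1.64, against -0.06, 0.01 and -0.02 over all genes. Gbp2, Ifit2, Igtp and Rtp4 were called in each genotype at 24 h, and Ifih1, Ifit1 and Irgm2 in both mutants. The 4 h and 24 h comparisons of a genotype share its untreated arrays.

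These counts need 3 limits. Ifit1, Irgm2 and Igtp passed the filter through 5 arrays each and Tap1 through 3, all of them untreated, so these 4 members could be called lower but hardly higher, and the counts and medians describe only the members tested. Without these 4, 5, 7 and 9 of the other 20 were called lower at 4 h and 5, 5 and 8 at 24 h in wt, heterozygous and homozygous cells, with 0 higher. The medians of the 20 were -0.82, -1.03 and -1.17 at 4 h and -1.05, -1.42 and -1.56 at 24 h. Cxcl10 passed through 4 arrays. The wt counts rest on single arrays: at 4 h they were 3 without untreated replicate 1 and 12 without untreated replicate 2. At 24 h they were 1 and 10 without these arrays, and 1 and 2 without replicates 1 and 2 of the treated group. With 1 array fewer, the heterozygous counts were 7 to 8 at 4 h and 1 to 2 at 24 h, and the homozygous ones 7 to 8 and 2 to 3, whichever of the compared arrays was left out. With only the groups compared in the fit, 0 members were called in wt cells at either time, against 21 in homozygous cells at each, of which 2 were higher at 4 h. Shares of all genes called are not given for these alternative fits. Their counts show only how far the calls depend on the fit, not a difference between genotypes. Over both times 17 members were called in at least 1 response, among them the 4 that passed only through untreated arrays. The share of all genes called in at least 1 response is not given. This count is therefore not read as a result about the members.

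**Figure D3:**
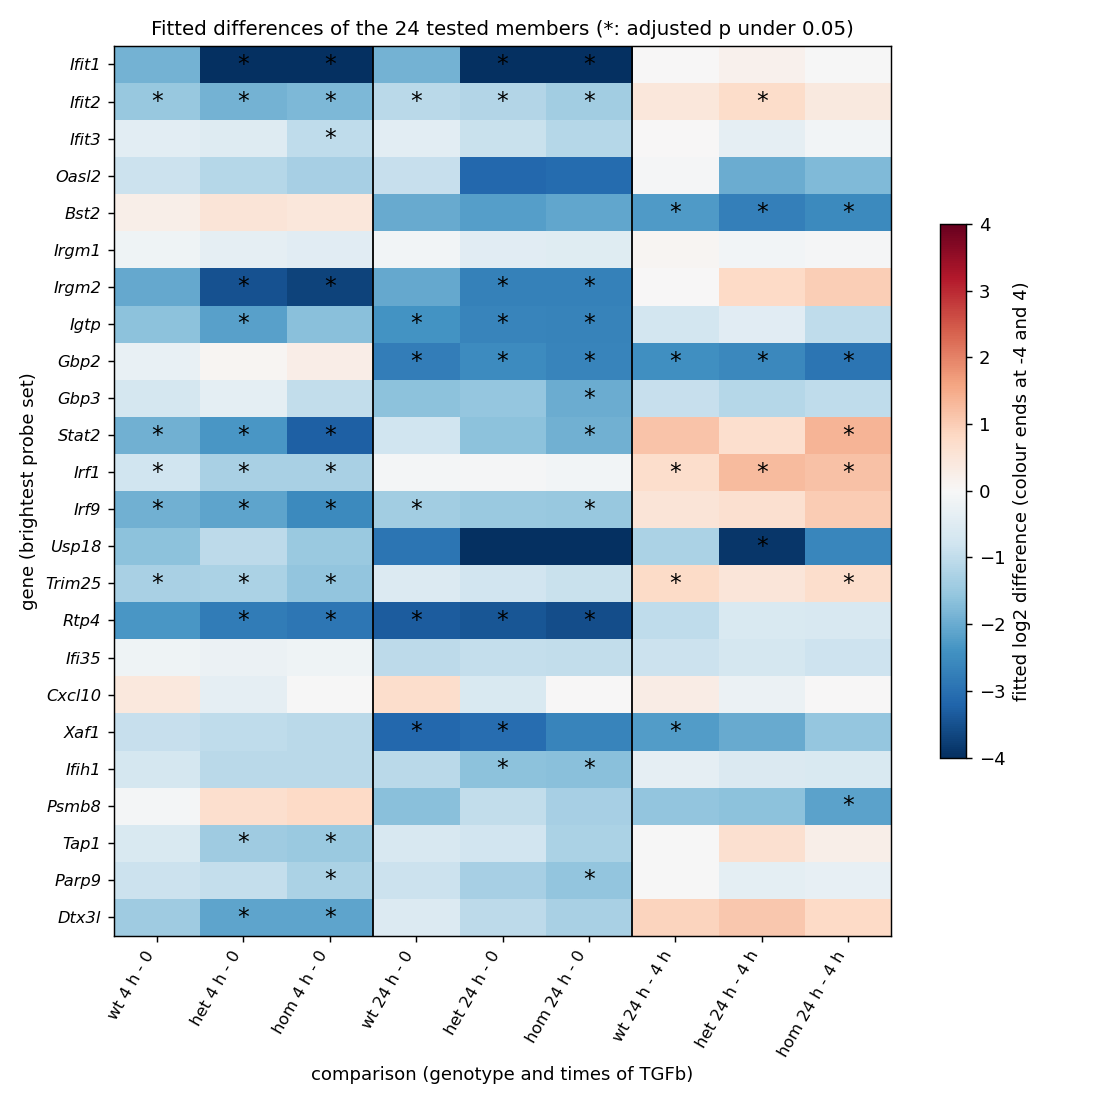
Heat map of fitted log2 differences for the 24 tested members (y axis) in each genotype (x axis): 4 h against untreated, 24 h against untreated and 24 h against 4 h. Stars mark called differences and the colour ends at -4 and 4. All stars in the 6 columns against untreated mark lower levels, and sizes of members under log2 5 in the treated arrays are not well measured.

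Of 4 listed signalling and transcription factors 3 were tested, Stat2, Irf9 and Irf1, and each was called lower at 4 h in all 3 genotypes. Their 3 wt calls were lost with array weights and with only the groups compared in the fit. Stat2, a mediator of the type I response, read log2 6.49 and 4.85 in untreated wt, 3.85 and 3.63 at 4 h and 5.12 and 4.62 at 24 h. In heterozygous cells it read 6.69 and 6.62, then 3.66 and 5.03, then 5.03 and 4.99. In homozygous cells it read 6.80 and 7.04, then 3.80 and 3.49, then 5.06 and 4.92. The 4 h arrays of every genotype lay below its untreated arrays with no overlap. At 4 h Stat2 fell at least 1.59-fold in wt (limma adjusted p = 0.0172) and at least 3.78-fold in homozygous cells (adjusted p = 0.000364). In heterozygous cells the difference was -2.32 ± 0.47 (adjusted p = 0.00404), with 1 of the treated arrays under log2 5 and the size therefore uncertain. At 24 h only homozygous cells were called (-1.93 ± 0.47, adjusted p = 0.0282, 1 array under log2 5). Without untreated wt replicate 1 or without 4 h replicate 2 the wt call at 4 h was lost (adjusted p = 0.137 and 0.0958), and the bound rests on untreated replicate 1: it was 2.80-fold without replicate 2, and without replicate 1 no fold could be bounded. The mutant calls at 4 h held without any 1 array. The homozygous call at 24 h was lost without any 1 of the 4 arrays (adjusted p = 0.125 to 0.178).

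Irf9, the DNA-binding subunit that brings STAT2 to the ISRE, was measured well above the filter in every array. It read 9.28 and 8.20 in untreated wt, 6.24 and 7.41 at 4 h and 7.16 and 7.54 at 24 h. Heterozygous cells gave 9.68 and 9.31, 7.09 and 7.66, and 8.34 and 7.66. Homozygous cells gave 9.47 and 9.62, 6.86 and 7.12, and 7.89 and 8.15. Treated arrays were below untreated ones at both times in each genotype. Irf9 fell by 1.91 ± 0.40 log2 in wt (limma adjusted p = 0.00767), 2.12 ± 0.40 in heterozygous (0.00257) and 2.55 ± 0.40 in homozygous cells (0.000594) at 4 h. The wt value was -1.38 without untreated replicate 1 (adjusted p = 0.0731), and the mutant calls held without any 1 array. At 24 h it was called in wt (-1.39, adjusted p = 0.0475) and homozygous cells (-1.52, 0.0392) and stood at -1.49 in heterozygous cells (0.0506). The wt call at 24 h was lost without untreated replicate 1 and without either treated array (adjusted p = 0.11 to 0.201), and the homozygous call without any 1 array (0.129 to 0.231).

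Irf1, a transcription factor induced mainly by interferon gamma that binds ISRE-like sites, was low at 4 h and back near its untreated level at 24 h. In wt cells it read 8.02 and 8.03 untreated, 7.30 and 7.19 at 4 h and 8.02 and 7.89 at 24 h. The heterozygous pairs read 8.39 and 8.15, 7.07 and 6.88, and 8.29 and 8.17. The homozygous pairs read 8.14 and 8.30, 6.83 and 7.01, and 8.01 and 8.20. The 4 h arrays lay under both other groups of their genotype, and the mutants' 24 h arrays overlapped the untreated ones. The 4 h differences were -0.78 ± 0.13 in wt (limma adjusted p = 0.00253), -1.29 ± 0.13 in heterozygous (5.37e-05) and -1.30 ± 0.13 in homozygous cells (4.51e-05). At 24 h they were -0.07, -0.04 and -0.12, none called. From 4 h to 24 h Irf1 rose by 0.71 ± 0.13 (adjusted p = 0.00254), 1.25 ± 0.13 (9.16e-05) and 1.19 ± 0.13 log2 (0.000118). These calls held without any 1 array. Irf7, which amplifies type I interferon production, stayed under the filter at 2.65 to 4.41.

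**Figure D4:**
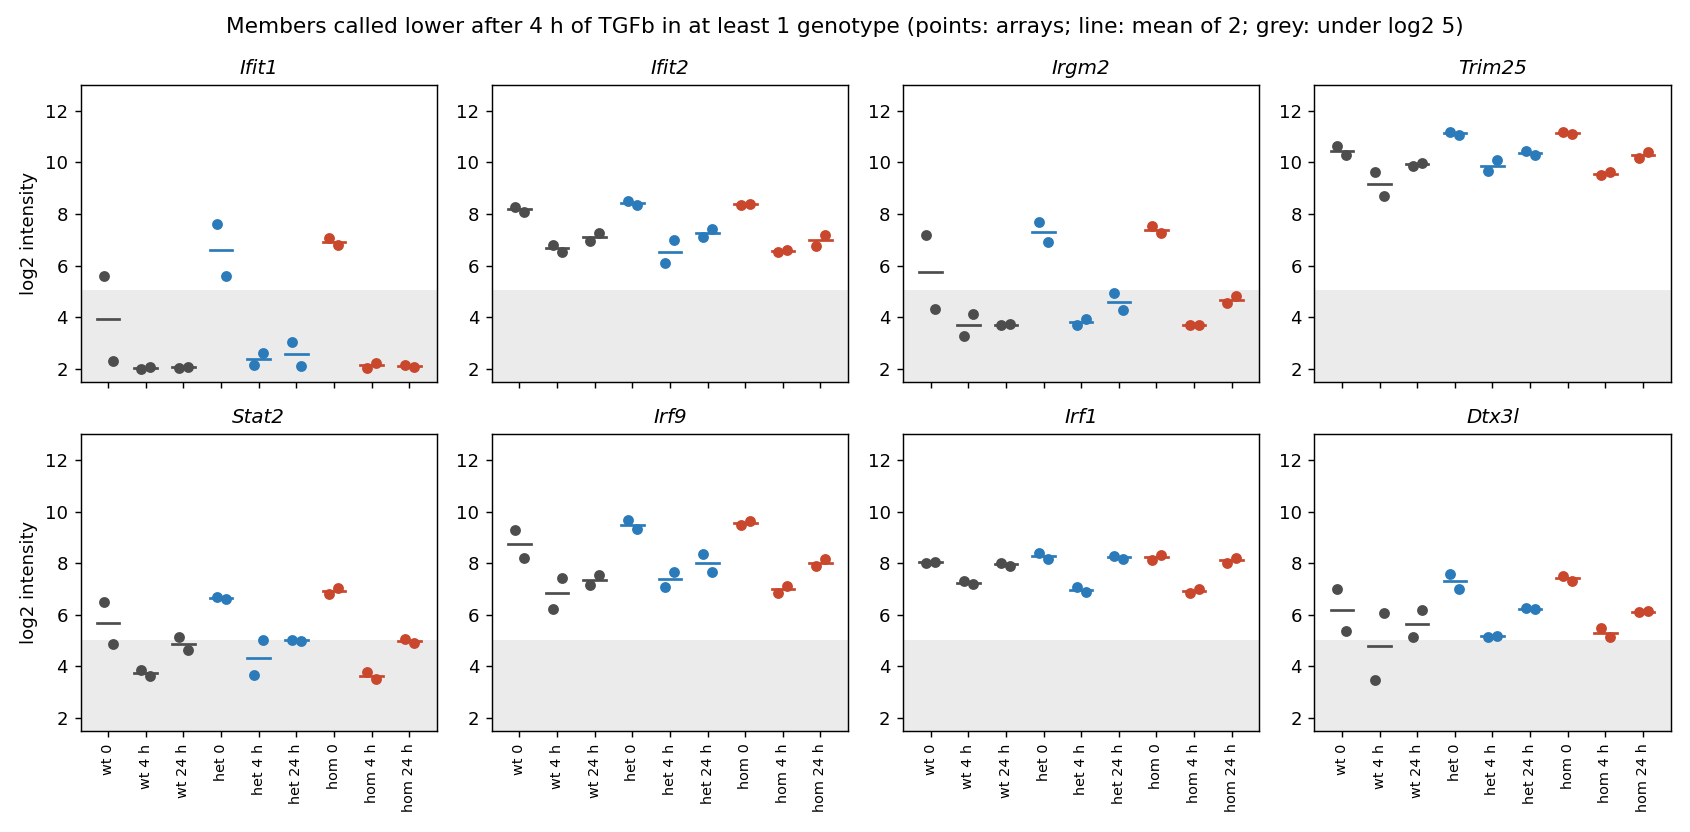
Log2 intensity (y axis) of 8 members called lower after 4 h of TGFb in at least 1 genotype, by group (x axis: 0 is untreated). Points are arrays, lines the mean of 2, and the grey band marks values under log2 5. Irf1 returns to its untreated level at 24 h, whereas Ifit1 and Irgm2 stay in the grey band.

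The IFIT genes encode proteins that bind viral RNA and block its translation. Ifit1 read 5.60 and 2.30 in untreated wt, 7.63 and 5.60 in untreated heterozygous and 7.06 and 6.79 in untreated homozygous cells. After TGFb it lay between 2.01 and 3.05 in all 12 treated arrays. All but 1 untreated array were above the filter and no treated array was. Ifit1 thus passed the filter only through untreated arrays and could hardly be called higher. Ifit1 fell at least 3.05-fold in heterozygous cells (limma adjusted p = 0.00346 at 4 h, 0.014 at 24 h) and at least 3.80-fold in homozygous cells (0.00115 and 0.00404). The heterozygous bound was 1.51-fold without untreated replicate 1 and 6.17-fold without replicate 2. In wt cells it was not called (adjusted p = 0.132 and 0.191), and both means lay under the filter. The 4 h mutant calls and the homozygous call at 24 h held without any 1 array. The heterozygous call at 24 h was lost without untreated replicate 1 or either treated array (largest adjusted p = 0.157).

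Ifit2, adjacent to Ifit3 on chromosome 19, was the antiviral member called in all 6 responses. In wt cells it read 8.27 and 8.08 untreated, 6.80 and 6.53 at 4 h and 6.96 and 7.25 at 24 h. In heterozygous cells it read 8.49 and 8.35, 6.09 and 6.98, and 7.11 and 7.42. In homozygous cells it read 8.36 and 8.38, 6.54 and 6.60, and 6.76 and 7.19. Its untreated arrays lay within 8.08 to 8.49 in the 3 genotypes, above every treated array. At 4 h it fell by 1.51 ± 0.25 (limma adjusted p = 0.00189), 1.88 ± 0.25 (0.000282) and 1.80 ± 0.25 log2 (0.000266) in wt, heterozygous and homozygous cells. At 24 h it fell by 1.07 (0.0183), 1.16 (0.017) and 1.40 log2 (0.00463), each ± 0.25. The 4 h calls held without any 1 array. At 24 h the wt call was lost without either untreated array or treated replicate 1 (adjusted p = 0.0525, 0.0504 and 0.108). The heterozygous call was lost without either untreated array or treated replicate 1 (largest adjusted p = 0.166), and the homozygous call without treated replicate 1 (0.0626).

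Ifit3 was near the filter throughout. It read 5.73 and 4.95 in untreated wt, 5.64 and 6.16 in untreated heterozygous and 6.43 and 5.91 in untreated homozygous cells, and 4.85 to 5.91 in the 12 treated arrays. Its single call was homozygous cells at 4 h (4.98 and 5.32; limma adjusted p = 0.0351, size uncertain because 1 array was dim), lost without any 1 array (0.0515 to 0.218). Oasl2, of the oligoadenylate synthetase family, varied widely between wt replicates and was not called: untreated wt arrays read 8.03 and 3.995. Its SD within pairs was 1.30 to 2.85 in wt, 0.53 to 0.70 in heterozygous and 0.005 to 0.156 in homozygous cells, and the fit pools them. In the mutants Oasl2 went from 7.29 to 8.28 untreated to 4.18 to 5.09 at 24 h, with a difference of -3.09 ± 1.03 in homozygous cells (adjusted p = 0.108) and an uncertain size in heterozygous cells (0.122), where 1 array was under log2 5. Mx1 and Mx2, GTPases that block viral replication, and Rsad2 (viperin) stayed under the filter, at 2.02 to 2.89.

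Bst2, or tetherin, which holds budding virus at the cell surface, was called only between the treated times. It read 11.35 and 9.30 in untreated wt, 9.26 and 11.88 at 4 h and 7.35 and 9.26 at 24 h. Heterozygous cells gave 11.74 and 11.25, 12.19 and 11.84, and 9.35 and 9.23. Homozygous cells gave 11.45 and 11.67, 11.87 and 12.17, and 9.29 and 9.65. In both mutants the 4 h arrays were the highest and the 24 h arrays the lowest, without overlap. The 4 h differences from untreated were 0.24, 0.52 and 0.46, none called, and those at 24 h -2.02, -2.20 and -2.09, none called (limma adjusted p = 0.136 to 0.161). The fit pools the spread of all groups, and the SD within pairs was 1.35 to 1.85 in wt and 0.085 to 0.346 in mutant cells. From 4 h to 24 h Bst2 fell by 2.72 ± 0.79 log2 in heterozygous (adjusted p = 0.0215) and by 2.54 ± 0.79 in homozygous cells (0.0259), and in wt the difference was -2.26 ± 0.79 (0.0431). Without any 1 array the mutant calls were lost (0.0646 to 0.119), and the wt call without 4 h replicate 2 or 24 h replicate 1 (largest 0.403).

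The interferon-inducible GTPases include proteins that attack the vacuoles of intracellular parasites and bacteria. Irgm2 read 7.20 and 4.30 in untreated wt, 7.70 and 6.90 in untreated heterozygous and 7.52 and 7.28 in untreated homozygous cells. Its treated arrays read 3.29 to 4.95, all under the filter, so Irgm2, like Igtp, passed only through untreated arrays and could hardly be called higher. It fell at least 4.93-fold in heterozygous (limma adjusted p = 0.00275 at 4 h, 0.0346 at 24 h) and at least 5.28-fold in homozygous cells (0.00134 and 0.0275). Only the 4 h calls held without any 1 array; at 24 h the adjusted p was then 0.0957 to 0.244. In wt cells it was not called (0.0518 at 4 h, 0.0767 at 24 h). Igtp, its neighbour on chromosome 11, read 6.13 and 3.72, 6.59 and 6.04, and 5.71 and 6.04 in the untreated pairs and 2.08 to 4.53 after TGFb. It fell at least 2.49-fold in heterozygous cells (adjusted p = 0.0238 at 4 h, 0.0313 at 24 h) and at least 1.84-fold in homozygous cells at 24 h (0.0238). At 24 h it was also called in wt (0.0339), without a fold because both means were under the filter. Each Igtp call was lost without at least 3 of the 4 compared arrays taken singly (largest adjusted p = 0.216). Irgm1 read 10.49 to 12.04 and was not called in any comparison. Iigp1 stayed under the filter.

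Gbp2, a guanylate-binding protein gene, was lower at 24 h and not at 4 h. In wt cells it read 8.36 and 7.63 untreated, 7.20 and 8.18 at 4 h and 5.05 and 5.42 at 24 h. The heterozygous pairs read 8.75 and 8.15, 8.76 and 8.31, and 6.13 and 5.76. The homozygous pairs read 8.65 and 8.87, 9.02 and 9.02, and 5.82 and 6.41. In all 3 genotypes the 24 h arrays lay below every untreated and 4 h array. The 24 h difference was -2.76 ± 0.34 (limma adjusted p = 0.000388), -2.50 ± 0.34 (0.00104) and -2.65 ± 0.34 (0.000638), and the 4 h difference -0.30, 0.09 and 0.26, none called. From 4 h to 24 h it fell by 2.46, 2.59 and 2.91 log2 (0.000543, 0.000327 and 0.000141). These calls held without any 1 array, and its other tested probe set was called lower at 24 h in each genotype, by at least 2.84-fold, 3.51-fold and 4.28-fold. Gbp3 was called only in homozygous cells at 24 h, from 7.49 and 7.51 to 5.27 and 5.75 (-1.99 ± 0.49, adjusted p = 0.0282), a call lost without any 1 array (0.0847 to 0.21). In wt cells both 24 h arrays of Gbp3 were under log2 5 and it was not called (0.0564), and in heterozygous cells the 24 h difference was -1.54 (0.106).

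**Figure D5:**
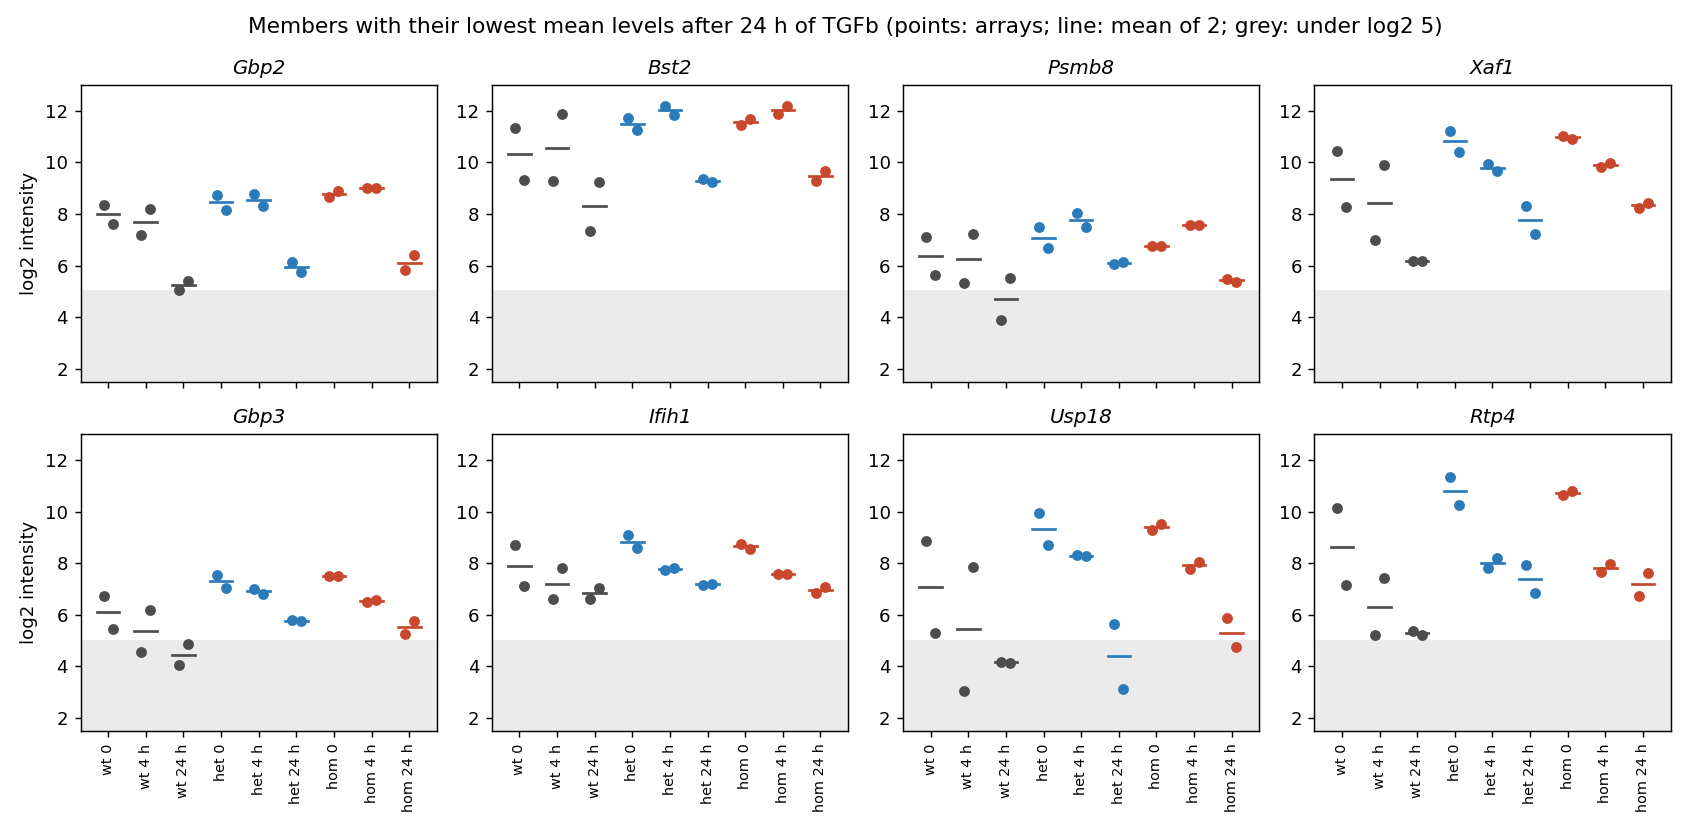
Log2 intensity (y axis) by group (x axis: 0 is untreated) of members whose lowest mean level in each genotype was at 24 h. Points are arrays, lines the mean of 2, and the grey band marks values under log2 5. Gbp2 and Bst2 show no called difference at 4 h and lie at their lowest at 24 h.

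Trim25, the ubiquitin ligase that activates RIG-I and also conjugates ISG15, read 10.64 and 10.28 in untreated wt, 9.64 and 8.68 at 4 h and 9.86 and 9.99 at 24 h. In heterozygous cells it read 11.20 and 11.08, 9.66 and 10.10, and 10.45 and 10.27. In homozygous cells it read 11.20 and 11.12, 9.50 and 9.63, and 10.16 and 10.39. The 4 h arrays were the lowest of each genotype and the 24 h arrays lay between. It fell at 4 h by 1.30 ± 0.25 (limma adjusted p = 0.0047), 1.26 ± 0.25 (0.00336) and 1.59 ± 0.25 log2 (0.000575), calls that held without any 1 array. Its dimmest tested probe set had means of 6.34, 7.36 and 7.30 untreated and 6.32, 6.49 and 6.42 at 24 h in wt, heterozygous and homozygous cells. At 24 h the brightest probe set was not called (0.0538 to 0.214), whereas another was (-0.76, -0.76 and -0.88). From 4 h to 24 h it was called higher in wt (0.76, adjusted p = 0.0323) and homozygous cells (0.71, 0.0427), but the wt call was lost without 4 h replicate 2 or either 24 h array (largest 0.332), and the homozygous call without any 1 array (0.0873 to 0.201).

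Usp18, which removes ISG15 from proteins and damps the interferon receptor, varied widely between replicates. In wt cells it read 8.87 and 5.31 untreated, 3.04 and 7.84 at 4 h and 4.18 and 4.15 at 24 h. Heterozygous cells gave 9.95 and 8.71, 8.31 and 8.27, and 5.63 and 3.14. Homozygous cells gave 9.30 and 9.53, 7.79 and 8.06, and 5.86 and 4.73. In the mutants the groups were ordered from untreated through 4 h to 24 h without overlap. The single call was 24 h against 4 h in heterozygous cells (-3.90 ± 1.34, limma adjusted p = 0.0454, 1 array under log2 5), and it was lost without either 4 h array or 24 h replicate 2 (largest 0.28). At 24 h Usp18 was not called against untreated cells (adjusted p = 0.211, 0.0548 and 0.0996). The fold was at least 4.25 in wt cells, or 1.24 and 14.6 without untreated replicate 1 or 2, and in each mutant its size is uncertain because 1 array was under log2 5.

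Ifih1, encoding the RNA sensor MDA5, read 8.70 and 7.10 in untreated wt, 6.60 and 7.80 at 4 h and 6.62 and 7.05 at 24 h. The heterozygous pairs read 9.08 and 8.59, 7.73 and 7.80, and 7.16 and 7.20. The homozygous pairs read 8.75 and 8.56, 7.58 and 7.58, and 6.86 and 7.09. The treated mutant arrays were lower than the untreated ones at both times, and lowest at 24 h. It was called at 24 h in heterozygous (-1.65 ± 0.44, limma adjusted p = 0.048) and homozygous cells (-1.68 ± 0.44, 0.0376), and lost without any 1 array (0.126 to 0.3). Dhx58, the related sensor LGP2, stayed under the filter.

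Among genes of antigen processing, Psmb8, a subunit of the immunoproteasome, and Tap1, a subunit of the peptide transporter, lie side by side on chromosome 17. Psmb8 read 7.11 and 5.63, 5.34 and 7.21, and 3.90 and 5.50 in wt cells untreated, at 4 h and at 24 h. In heterozygous cells it read 7.50 and 6.68, 8.03 and 7.49, and 6.08 and 6.13, and in homozygous cells 6.77 and 6.77, 7.59 and 7.57, and 5.50 and 5.36. Homozygous 4 h arrays were the highest and 24 h arrays the lowest, and 24 h against 4 h was called there (-2.15 ± 0.62, limma adjusted p = 0.0189; 0.0727 to 0.089 without any 1 array). Tap1 read 5.29 and 4.70 in untreated heterozygous and 5.54 and 5.31 in untreated homozygous cells, and at 4 h 3.62 and 3.55, and 3.57 and 4.32. Tap1 passed the filter only through untreated arrays and could hardly be called higher. It was called at 4 h in heterozygous cells without a fold (adjusted p = 0.0156) and fell at least 1.34-fold in homozygous cells (0.00936). These calls were lost without 3 and 2 of the 4 arrays taken singly (largest adjusted p = 0.123). At 24 h Tap1 read 4.52 and 3.93 in heterozygous and 4.35 and 3.99 in homozygous cells, not called, and in wt cells it read 4.34 and 4.90 untreated and 3.60 to 4.35 after TGFb. Psmb9 stayed under the filter.

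Parp9 and Dtx3l, neighbours on chromosome 16, encode a complex of an ADP-ribosyltransferase and a ubiquitin ligase. Dtx3l read 6.99 and 5.39 in untreated wt, 3.47 and 6.08 at 4 h and 5.12 and 6.18 at 24 h. Heterozygous cells gave 7.59 and 6.99, 5.16 and 5.18, and 6.25 and 6.22, and in homozygous cells 7.52 and 7.32, 5.48 and 5.13, and 6.09 and 6.14. In the mutants the 4 h arrays were lowest, without overlap, and the differences were -2.12 ± 0.67 in both (limma adjusted p = 0.0352 and 0.0284). The other tested Dtx3l probe set changed less, from a mean of 6.44 untreated to 5.23 at 4 h in heterozygous and from 6.31 to 5.12 in homozygous cells. Parp9 read 8.47 and 6.88, 6.34 and 7.28, and 6.43 and 7.19 in wt cells. The heterozygous pairs read 9.01 and 8.44, 7.73 and 7.82, and 7.58 and 7.19, and in homozygous cells 8.81 and 8.81, 7.50 and 7.58, and 7.15 and 7.29. It was called only in homozygous cells, at 4 h (-1.27 ± 0.43, adjusted p = 0.0391) and 24 h (-1.59 ± 0.43, 0.0485). All 4 calls were lost without any 1 array (adjusted p = 0.0836 to 0.235). Parp14, also a neighbour, stayed under the filter.

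Rtp4, a chaperone for membrane receptors, read 10.14 and 7.13 in untreated wt, 5.21 and 7.41 at 4 h and 5.39 and 5.20 at 24 h. In heterozygous cells it read 11.35 and 10.26, 7.80 and 8.21, and 7.93 and 6.84. In homozygous cells it read 10.63 and 10.80, 7.67 and 7.96, and 6.74 and 7.61. All treated mutant arrays lay below the untreated ones. At 4 h it fell by 2.80 ± 0.84 (limma adjusted p = 0.0273) in heterozygous and 2.90 ± 0.84 log2 in homozygous cells (0.018), with -2.33 in wt not called (0.074). At 24 h it fell by 3.34 ± 0.84 in wt (0.027), 3.42 in heterozygous (0.0339) and 3.54 log2 in homozygous cells (0.0239). The mutant calls were lost without any 1 array (0.0554 to 0.245). The wt call was lost without untreated replicate 1, where the difference was -1.84 (0.117), and without either treated array (0.0882 and 0.123).

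Xaf1, a pro-apoptotic antagonist of XIAP, read 10.43 and 8.26 in untreated wt, 6.99 and 9.88 at 4 h and 6.20 and 6.20 at 24 h. Heterozygous cells gave 11.22 and 10.40, 9.93 and 9.67, and 8.33 and 7.22. Homozygous cells gave 11.02 and 10.91, 9.82 and 9.96, and 8.24 and 8.43. The 24 h arrays were the lowest of each genotype. It was called at 24 h in wt (-3.15 ± 0.78, limma adjusted p = 0.0259) and heterozygous cells (-3.04 ± 0.78, 0.0431), and stood at -2.63 (0.0693) in homozygous cells. From 4 h to 24 h it was called in wt (-2.24, 0.0444). Without untreated replicate 1 the 24 h wt difference was -2.07 (0.113), and it was not called without either treated array (0.0932 and 0.109). The heterozygous call was lost without any 1 array (0.103 to 0.279), and the 24 h against 4 h call in wt cells without 4 h replicate 2, where it was -0.79 (0.444), or either 24 h array (0.124 and 0.135). Ifi35 on its brightest probe set (9.98 to 11.61) and the chemokine Cxcl10 (4.18 to 6.32) were not called. A dimmer Ifi35 probe set was called lower at 24 h than at 4 h in each genotype (-0.93, -1.21 and -1.28).

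Between 4 h and 24 h members moved in both directions, as did the rest of the genes. In wt cells 3 were lower and 2 higher, where 18.7% of all genes were called lower and 14.7% higher. In heterozygous cells 3 were lower and 2 higher (16.6% and 14.3% of all genes), and in homozygous cells 3 and 3 (21.3% and 14.4%). Bst2 and Gbp2 were called lower and Irf1 higher in all 3 genotypes. Ifit2 was called higher in heterozygous (0.73, limma adjusted p = 0.0439) and Stat2 in homozygous cells (0.0443, no fold, both means under the filter), and Ifit2 was lost without 4 h replicate 1 or either 24 h array (largest adjusted p = 0.402) and Stat2 without any 1 array (0.107 to 0.178).

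The untreated genotypes were then compared, which asks whether the mutant alters the basal level. In limma 0 of 24 members were called in heterozygous against wt cells (0.754% of all genes were called), although all 24 differences were positive, with a median of 0.96 and 8 at an unadjusted p under 0.05. In homozygous against wt cells 0 were called (0.913% of all genes), with 23 positive, a median of 0.93 and 10 at an unadjusted p under 0.05. Between the mutants 0 were called (0% of all genes; 0 at an unadjusted p under 0.05), with a median of 0.08. The wt level differed between its arrays. Untreated wt replicate 1 was higher than replicate 2 in 22 of 24 members, by a median of 1.54 log2 and by 4.03 for Oasl2. Without replicate 1, some members were called higher in heterozygous and homozygous cells, and without any other array counts stayed at 0. Shares of all genes called without replicate 1, or at an unadjusted p under 0.05, are not given here. Neither is thus read as a result about the members. The macrophage list moved with these comparisons: 6 of its 21 markers were called higher in heterozygous and 1 in homozygous cells. Its medians were 2.50 and 1.89, and all 21 were at an unadjusted p under 0.05 in both. In the responses to TGFb it had 0 of 21 called by limma at 4 h in every genotype (0, 1 and 1 at an unadjusted p under 0.05) and at most 1 lower at 24 h, with medians of 0.31, 0.25 and 0.45 at 4 h and -0.49, -0.09 and -0.23 at 24 h in wt, heterozygous and homozygous cells. Some markers of other lists were also called. Of 11 fibroblast markers 2, 4 and 6 were called lower at 4 h and 2, 0 and 1 at 24 h. Of all genes 10.5%, 12.8% and 17% were called lower at 4 h and 6.35%, 3.67% and 4.98% at 24 h. Among these markers was Pdgfra, the PDGF receptor alpha, at 4 h in each genotype (limma adjusted p = 9.43e-05, 9.49e-05 and 7.05e-05). The endothelial marker Flt1 rose at 4 h by 0.78, 0.90 and 0.78 ± 0.24 log2 (adjusted p = 0.0448, 0.0168 and 0.0256). The epithelial sum in homozygous cells was 1436 and 1148 untreated, 3628 and 2505 at 4 h and 1519 and 1362 at 24 h, with 0 of 4 markers called by limma at 4 h and 2 at an unadjusted p under 0.05. The epithelial keratin gene Krt19 was lower at 24 h in wt (-1.83 ± 0.46, adjusted p = 0.0265) and heterozygous cells (-2.06 ± 0.46, 0.0201). Their part in the member levels was not tested.

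Whether the mutants responded differently from wt was tested as an interaction. Limma called 0 of 24 members, and 0% of all genes, in each of the 4 interactions. The members at an unadjusted p under 0.05 numbered 1 and 2 at 4 h in heterozygous and homozygous cells, and 0 and 1 at 24 h. Without untreated wt replicate 1, calls appeared at 4 h in both mutants and at 24 h in homozygous cells only. Shares of all genes called without that array, or at an unadjusted p under 0.05, are not given here. Neither is read as a result about the members. The larger counts of members called in the mutants are thus not shown to differ from wt.

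Other genes of the pathway were followed through lists. Of 5 tested interferon receptor genes (Ifnar1, Ifnar2, Ifngr1, Ifngr2 and Il10rb) 0 were called by limma in any of the 6 responses, with at most 1 of the 5 at an unadjusted p under 0.05 in a response. Ifnar1 read 8.82 to 9.20, Ifnar2 9.86 to 10.52, Ifngr1 8.62 to 9.47, Ifngr2 9.01 to 10.03 and Il10rb 9.54 to 10.22. The ligand genes Ifna1, Ifna4, Ifnb1 and Ifng stayed under the filter and were not tested. Inhibitors of Jak-Stat signalling were in part higher at 4 h, with 3 of 14 higher and 0 lower in wt, 4 and 1 in heterozygous and 6 and 2 in homozygous cells, where 8.68%, 15.2% and 19.7% of all genes were called higher and 10.5%, 12.8% and 17% lower. Socs2, a suppressor of cytokine signalling, rose by 1.45, 1.68 and 1.67 ± 0.16 log2 (limma adjusted p = 0.000123, 2.7e-05 and 2.21e-05). Cish, of the same family, rose by 1.20, 1.20 and 1.35 ± 0.34 log2, and the phosphatase gene Ptpn1 by 0.76, 0.91 and 1.03 ± 0.15 log2. At 24 h none of the 14 was called higher, and Socs3 was lower in wt (-0.96) and homozygous cells (-0.94).

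Interferon-induced genes outside the list were near the background at 4 h in wt cells, where 10.5% of all genes were called lower and 8.68% higher (12.8% and 15.2% in heterozygous, 17% and 19.7% in homozygous cells). Of 34 tested, 4 were lower and 0 higher in wt, 7 and 1 in heterozygous and 11 and 2 in homozygous cells at 4 h, and 10, 6 and 12 were lower and 0 higher at 24 h, where 6.35%, 3.67% and 4.98% of all genes were called lower. Their medians were -0.21, 0.00 and -0.02 at 4 h and -0.72, -0.80 and -0.81 at 24 h. Pml, a nuclear body protein induced by interferon, fell at 4 h by 2.29 ± 0.32, 2.01 ± 0.32 and 1.77 ± 0.32 log2 (limma adjusted p = 0.000756, 0.00103 and 0.00153). Ddx58, encoding the RNA sensor RIG-I that TRIM25 activates, fell at 4 h by 1.36, 1.32 and 1.71 ± 0.27 log2 (0.00601, 0.00409 and 0.00064), in a sensing list with 2, 3 and 4 of 12 genes lower and 1 higher, beside 10.5%, 12.8% and 17% of all genes lower and 8.68%, 15.2% and 19.7% higher. Of 12 Jak-Stat and interferon regulatory factors outside the list, 0 were called by limma in wt cells at either time (1 and 0 at an unadjusted p under 0.05). At 4 h 1 was higher and 2 lower in heterozygous and 3 lower in homozygous cells. At 24 h 0 were called in heterozygous cells (2 at an unadjusted p under 0.05) and 2 were lower in homozygous cells. Of 12 other genes of class I presentation at most 1 was higher and 2 lower in any response.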

How the data were processed

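Mouse embryonic fibroblast RNA was hybridised to 18 Affymetrix arrays, 2 in each of 9 groups taken from the labels. The deposited intensity values are linear and were made by the authors with GCRMA (background correction, normalization and probe set summary), per the submitters' processing notes; scan batches and GCRMA's version were not given in the sources used here. Log2 values were used without further normalization. Between 39.48% and 40.33% of probe sets per array reached log2 5, so folds against dimmer groups are bounds. The number of arrays limits the precision.

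In R 4.3.3 with limma 3.58.1, a mean per group was fitted to 18 arrays (9 residual degrees of freedom, eBayes with intensity trend). Two-sided p-values took Benjamini-Hochberg adjustment over 18958 probe sets and were called under 0.05. Each gene's brightest probe set with a single symbol stands for it (34945 such probe sets, 0 symbols updated). Errors are standard errors of this fit. Each probe set has 1 spread shared by all groups, although wt pairs spread more than mutant pairs. A mutant difference that was not called is thus not shown to be absent. Members called in any comparison are given array by array, other members by range, and at most 4 called genes per list were eligible for naming. Members, lists and tests were chosen with earlier results of these data known. The fit was tested on simulated data. Alternatives were the filter, 1 probe set per gene, quantile normalization, log2 of the value plus 16, array weights, only the groups compared, replicate blocks and each array left out. RefSeq promoters are of GRCm38.p6.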

Additional observations from a re-analysis of the deposited data

How the results depend on the processing

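No called difference of a member changed direction in any alternative. Of 69 called member differences, 27 stayed called without any 1 array and 21 in every setting. Counts of members called moved as follows, and the cause was not tested unless stated. With no filter on low values (more probe sets enter the adjustment) the counts were 2, 3 and 3 at 24 h and 2, 2 and 2 for 24 h against 4 h in wt, heterozygous and homozygous cells. With array weights they were 0 in wt cells at 4 h, 2, 17 and 22 at 24 h and 1, 11 and 15 for 24 h against 4 h. With only the groups compared they were 0 at both times and 0 between times in wt cells, 13 and 11 in heterozygous cells at 24 h and between times, and 21, 21 and 16 in homozygous cells at 4 h, 24 h and between times. Using 1 probe set per gene, quantile normalization and log2 of the value plus 16 left every count within 1.5 times. Leaving out 1 array gave 3 to 12 (wt 4 h), 1 to 10 (wt 24 h), 7 to 8 (heterozygous 4 h), 1 to 2 (heterozygous 24 h), 7 to 8 (homozygous 4 h), 2 to 3 (homozygous 24 h), 2 to 9, 2 to 3 and 2 to 2 between times, 0 to 9 and 0 to 10 for untreated mutants against wt, 0 to 0 between mutants, and 0 to 1, 0 to 2, 0 to 0 and 0 to 1 for the interactions. The lone remaining array is then assumed to vary like the other groups. Shares of all genes called are not given for these alternatives, so the counts show only how far calls depend on the fit.

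Replicate numbers are not said to mark a shared embryo or day, and deviations of arrays with the same number correlated at 0.234 to 0.606 within the mutants but -0.576 to 0.511 within wt cells, so they were not taken as pairs. A replicate block over all groups gave 3 between times in wt cells, and a replicate block within genotype gave 4 in heterozygous cells at 24 h and 3 between times in wt cells. A block with the untreated wt numbers crossed, chosen after seeing the data, gave 11 and 14 in wt cells at 4 h and 24 h, 16 in heterozygous cells at 24 h, 19 and 21 in homozygous cells, and 9, 11 and 12 between times. Shares of all genes called are not given for these blocks either. Their counts show only how far calls depend on the fit.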
